A study of Mus musculus with 9 samples.

Results

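Growth factor receptors of the FGF, TAM, MET, ROR and PDGF families were examined with a few of their ligands. The set held 10 genes of the 55450 in the count table, chosen by name: the receptors Fgfr1, Fgfr2, Fgfr3, Axl, Met, Ror1, Pdgfra and Pdgfrb, and the ligands Gas6 and Pdgfa. All 10 passed the filter on low counts, as did 19357 genes of the table. RNA had been sequenced from live EYFP+ cells that were sorted from the mammary glands of adult nulliparous mice, with 3 libraries in each of 3 genotypes. All mice carried lsl-EYFP and K8CreERT2, and the control mice no floxed gene besides. The libraries labelled LATS1/2-KO came from animals that also carried LATS1/2f/f, floxed alleles of both Hippo pathway kinase genes. For the libraries labelled LATS1/2-Sox9-KO the animals carried LATS1/2f/f and, as well, Sox9f/f, floxed alleles of a transcription factor gene. The Cre is tamoxifen-dependent and driven from the keratin 8 promoter, and every mouse, controls included, received 5 daily doses of 2 mg tamoxifen, with glands taken 7 days after the last. As a model, each group thus holds whichever keratin 8-expressing cells had recombined and were still alive and EYFP+ at that time. The comparisons asked how loss of LATS1/2 in luminal cells, with or without loss of Sox9, was accompanied by changes in these genes. The labels do not say whether the libraries of a group came from separate mice, so the p-values measure only the spread between these libraries.

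A receptor tyrosine kinase spans the cell membrane, binds a growth factor outside the cell and phosphorylates itself and adaptor proteins inside, which feed the RAS-MAP kinase and PI3-kinase pathways. FGF receptors and MET act in branching and growth of the mammary epithelium, while PDGF receptors are best known from fibroblasts and pericytes. AXL, with TYRO3 and MERTK, forms the TAM family and is bound by GAS6, and ROR1 is a receptor for non-canonical Wnt ligands. The kinases LATS1 and LATS2 restrain YAP and TAZ, which act on genes through TEAD factors.

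The libraries held between 44167762 and 61967651 counts. Values are given as normalized counts, that is, counts scaled by TMM factors to the mean effective library size, or as RPKM where genes are compared with each other, which divides by the length of a gene's exons. A gene was called when its log2 fold change in edgeR's quasi-likelihood fit over all 9 libraries passed 1 in size and its Benjamini-Hochberg adjusted p over all 19357 genes was at most 0.05. "Rose" and "fell" are used of called genes. Fold changes are written as log2 values with their standard error.

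The targeted genes were checked first. Lats1 stood at 5672, 5929 and 5940 normalized counts in the controls and between 1709 and 2336 in the other 6 libraries. Lats2 did not fall: it stood between 865 and 1220 in the controls, between 1256 and 1723 in the LATS1/2-KO libraries and between 1240 and 1957 in the LATS1/2-Sox9-KO libraries. Counts over a whole gene include exons outside the floxed part, so this is a weak check of the labels. Sox9 stood between 19948 and 23313 in the controls, between 7205 and 12433 in the LATS1/2-KO libraries, and between 6460 and 8812 in the LATS1/2-Sox9-KO libraries, whose difference from the LATS1/2-KO libraries was -0.40 ± 0.19 (log2, SE) with an adjusted p of 0.25 in edgeR's test. Sox9 therefore did not separate the libraries of the floxed groups by their labels beyond the test's threshold.

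The luminal keratins Krt8 and Krt18 and the epithelial gene Epcam were abundant in all 9 libraries, with Krt8 never under 168814 normalized counts. Of 7 luminal epithelial genes listed, none rose and 1 fell in LATS1/2-KO against control (Krt19). In LATS1/2-Sox9-KO against control 2 rose (Krt8 and Krt18) and 1 fell (Epcam). Of 7 lymphocyte genes listed, Cd3e and Ms4a1 were at 0 in every library. Ptprc, the most abundant of them, was present in all 9 libraries, between 10.9 and 166 normalized counts, and was highest in LATS1/2-KO library 1. The sum of the 7 was 87.5 ± 31.6 in the controls (SD, n = 3), 104 ± 111 in the LATS1/2-KO libraries and 114 ± 43.3 in the LATS1/2-Sox9-KO libraries. Control library 3 stood further from the other controls than they from each other (a mean log2 distance of 0.80 and 0.76 against 0.61), and LATS1/2-KO library 1 stood further from its 2 partners (1.01 and 0.99 against 0.68), as did LATS1/2-Sox9-KO library 1 (0.70 and 0.71 against 0.55).

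Other cell type genes moved between the groups, and their part in the results was not tested. Of 10 basal genes listed, 5 rose and 3 fell in LATS1/2-KO against control and 4 rose and 4 fell in LATS1/2-Sox9-KO against control, and their summed normalized count was 6036 ± 662 in the controls (SD, n = 3), 197924 ± 63621 in the LATS1/2-KO libraries and 276799.9 ± 113860 in the LATS1/2-Sox9-KO libraries. Krt14, the most abundant of them over all libraries, made up most of the sum in both floxed groups but averaged 672 in the controls. Of 5 adipocyte genes, 4 rose in both floxed groups. Cfd, the most abundant of these, was at 0 in all 3 controls and in LATS1/2-KO library 1, and stood at 3093 and 1780 in the other LATS1/2-KO libraries and at 0.93, 861 and 359.8 in the LATS1/2-Sox9-KO libraries. Endothelial genes gave 1 risen and 1 fallen of 8 in both comparisons with control, and Schwann cell genes gave 2 fallen of 4 tested, with Mbp the most abundant. In RNA from a cell population, fewer cells of a type and less RNA per cell cannot be told apart.

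The set moved in both directions. In the LATS1/2-KO libraries 3 of the 10 genes rose against control (Axl, Pdgfa and Ror1) and 4 fell (Fgfr1, Fgfr2, Fgfr3 and Gas6), beside 34.6% of all genes tested that were called in this comparison, 17.1% upwards and 17.5% downwards. In the LATS1/2-Sox9-KO libraries the same 3 genes rose against the same controls and 5 fell, Pdgfra being the addition, beside 37.4% of all genes called, 17.8% upwards and 19.6% downwards. The control libraries are shared by both comparisons. Between the LATS1/2-Sox9-KO and LATS1/2-KO libraries none of the 10 rose and 2 fell (Fgfr3 and Gas6), beside 3.71% of all genes called, 1.55% upwards and 2.16% downwards. The counts without control library 3 were 7, 8 and 2, and without LATS1/2-KO library 1 or without LATS1/2-Sox9-KO library 1 they were 7, 8 and 1. Between the floxed groups the count was 0 without LATS1/2-KO library 3 or without LATS1/2-Sox9-KO library 2. It was also 0 when the test itself required a fold change above 2 (glmTreat). The median log2 fold change over the 10 genes was 0.22, -0.60 and -0.38 in the 3 comparisons in that order, beside 0.04, 0.01 and -0.02 over all genes tested. By the adjusted p alone, 8, 9 and 2 of the 10 genes passed, beside 55.7%, 57.9% and 6.45% of all genes tested. The libraries of the groups did not overlap for 8, 9 and 5 of the 10 genes, beside 61.6%, 68.8% and 27.9% of all genes tested.

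**Figure D1:**
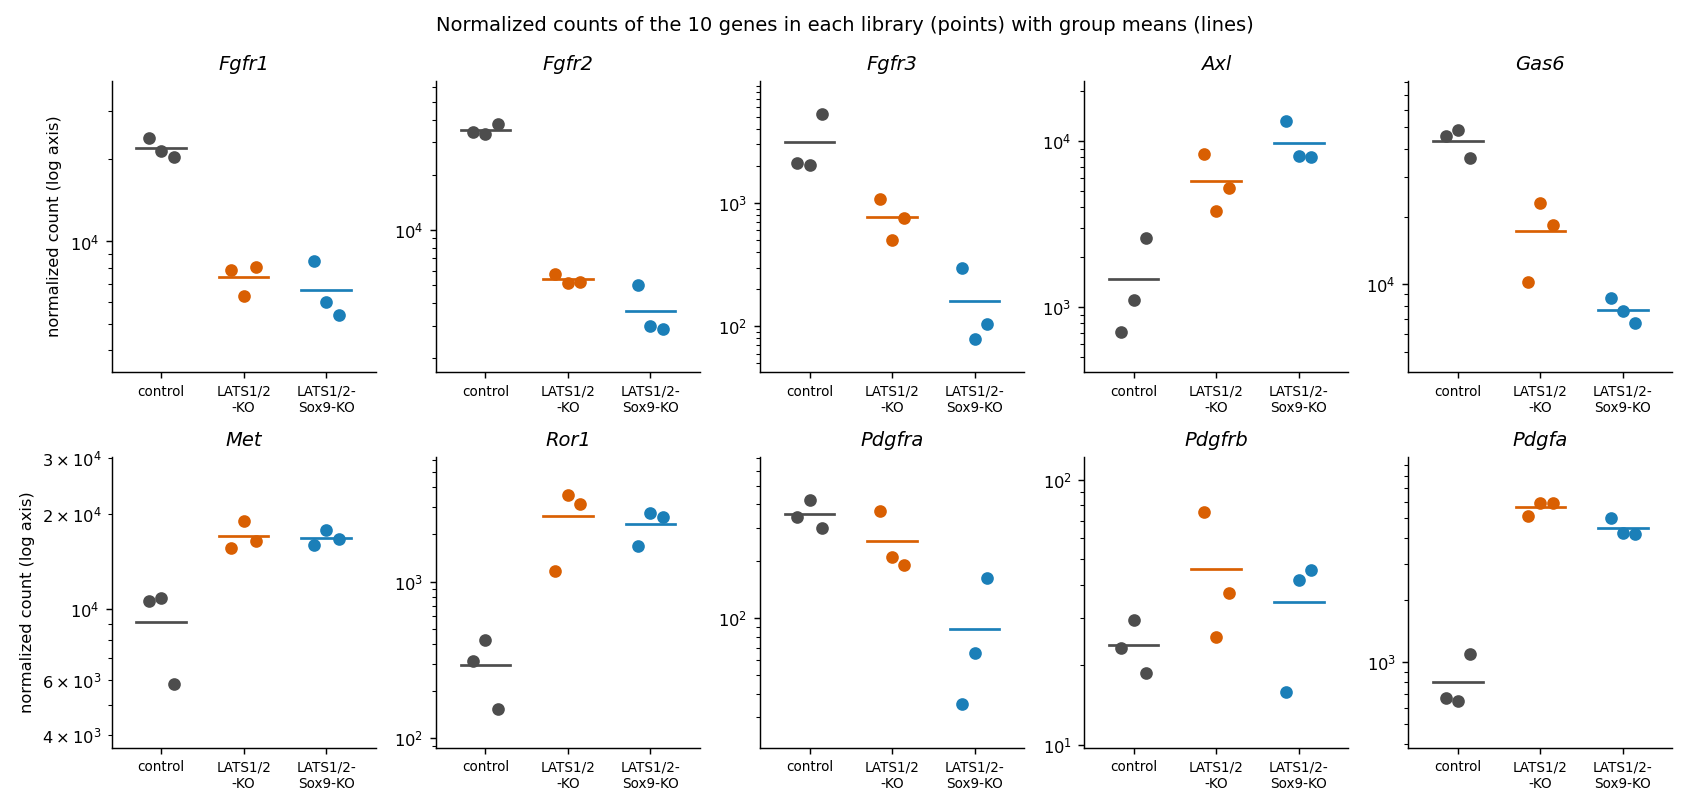
Normalized counts (vertical, log axis, a separate range for each gene) of the 10 genes in the control, LATS1/2-KO and LATS1/2-Sox9-KO libraries, 1 point per library, with a line at each group mean. Fgfr1 and Fgfr2 lie lower in all 6 floxed libraries than in any control, while Axl, Pdgfa and Ror1 lie higher.

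The 3 FGF receptors all fell in both floxed groups. Fgfr2, whose epithelial form is the receptor for stromal FGF7 and FGF10, was the most abundant receptor of the set in the controls, at 63.3 ± 4.52 RPKM (SD, n = 3). It stood at 34372, 33165 and 37991 normalized counts in the controls, at 5784, 5156 and 5224 in the LATS1/2-KO libraries, and at 5021, 2985 and 2869 in the LATS1/2-Sox9-KO libraries. The floxed groups both lay far under the controls, and each LATS1/2-Sox9-KO library lay under each LATS1/2-KO library. The log2 fold change was -2.71 ± 0.21 in LATS1/2-KO against control (edgeR, adjusted p = 6.31e-06) and -3.28 ± 0.21 in LATS1/2-Sox9-KO against control (adjusted p = 1.89e-06). Between the floxed groups it was -0.57 ± 0.19, with an adjusted p of 0.115 and a 95% interval from -1.01 to -0.14, which was not called although the libraries did not overlap.

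Fgfr1, the FGF receptor with the broadest expression across tissues, stood at 23892, 21372 and 20432 normalized counts in the controls. It stood at 7847, 6345 and 8062 in the LATS1/2-KO libraries and at 8499, 5995 and 5385 in the LATS1/2-Sox9-KO libraries. All 6 floxed libraries lay under all 3 controls, while the floxed groups overlapped each other. Against control it fell, with log2 values of -1.56 ± 0.18 (edgeR, adjusted p = 5.46e-05) and -1.72 ± 0.18 (adjusted p = 2.40e-05), and the difference between the floxed groups was -0.16 with a 95% interval from -0.55 to 0.22.

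Fgfr3 was the least abundant of the 3 and fell in steps. Its normalized counts were 2132, 2059 and 5301 in the controls, 1072, 502 and 763 in the LATS1/2-KO libraries, and 300, 78.7 and 104 in the LATS1/2-Sox9-KO libraries. No group overlapped another, and control library 3 was above the other controls. The log2 fold changes against control were -2.02 ± 0.54 (edgeR, adjusted p = 0.00913) and -4.30 ± 0.60 (adjusted p = 0.000175), and without control library 3 they were -1.44 and -3.69. Without LATS1/2-Sox9-KO library 1, the highest of its group, the second was -5.09. Between the floxed groups the log2 fold change was -2.27 ± 0.55 (adjusted p = 0.0413). That call was lost under 7 of the 19 alternatives tried, for instance without LATS1/2-Sox9-KO library 2, where the adjusted p was 0.135, and without LATS1/2-KO library 1, where the log2 fold change was -1.97 with an adjusted p of 0.0673. Without LATS1/2-Sox9-KO library 1 it was -3.06 and called.

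Summed per length, Fgfr1, Fgfr2 and Fgfr3 together made up 113 ± 7.67 RPKM in the controls (SD, n = 3), 25.7 ± 2.82 in the LATS1/2-KO libraries and 19.4 ± 5.58 in the LATS1/2-Sox9-KO libraries. Their make-up moved with the level. Fgfr2 gave 56.2% ± 0.951 of this sum in the controls, 37.9% ± 2.96 in the LATS1/2-KO libraries and 33.3% ± 1.58 in the LATS1/2-Sox9-KO libraries, and Fgfr1 gave 36.7% ± 4.27, 54.3% ± 2.44 and 64.7% ± 2.50. The order of the pair thus turned in every floxed library: Fgfr2 was ahead of Fgfr1 in all 3 controls and behind it in all 6 others. Exons that Fgfr2 shares with Ctbp2 on the same strand span 314 of its 10328 exonic bases, so a small part of its reads could have been assigned otherwise.

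The mature luminal genes Esr1, Pgr, Prlr, Foxa1, Gata3 and Cited1 moved in the same direction as the FGF receptors. All 6 were called lower in both floxed groups, and their summed normalized count was 260536 ± 27469 in the controls (SD, n = 3), 12334 ± 6318 in the LATS1/2-KO libraries and 7185 ± 1095 in the LATS1/2-Sox9-KO libraries, with Prlr the most abundant. The share of such cells among those sorted and its part in the fall of the FGF receptors was not tested. Among luminal progenitor genes (Elf5, Kit, Aldh1a3 and Cd14) none of 4 was called in LATS1/2-KO against control and 3 of 4 were lower in LATS1/2-Sox9-KO against control.

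**Figure D2:**
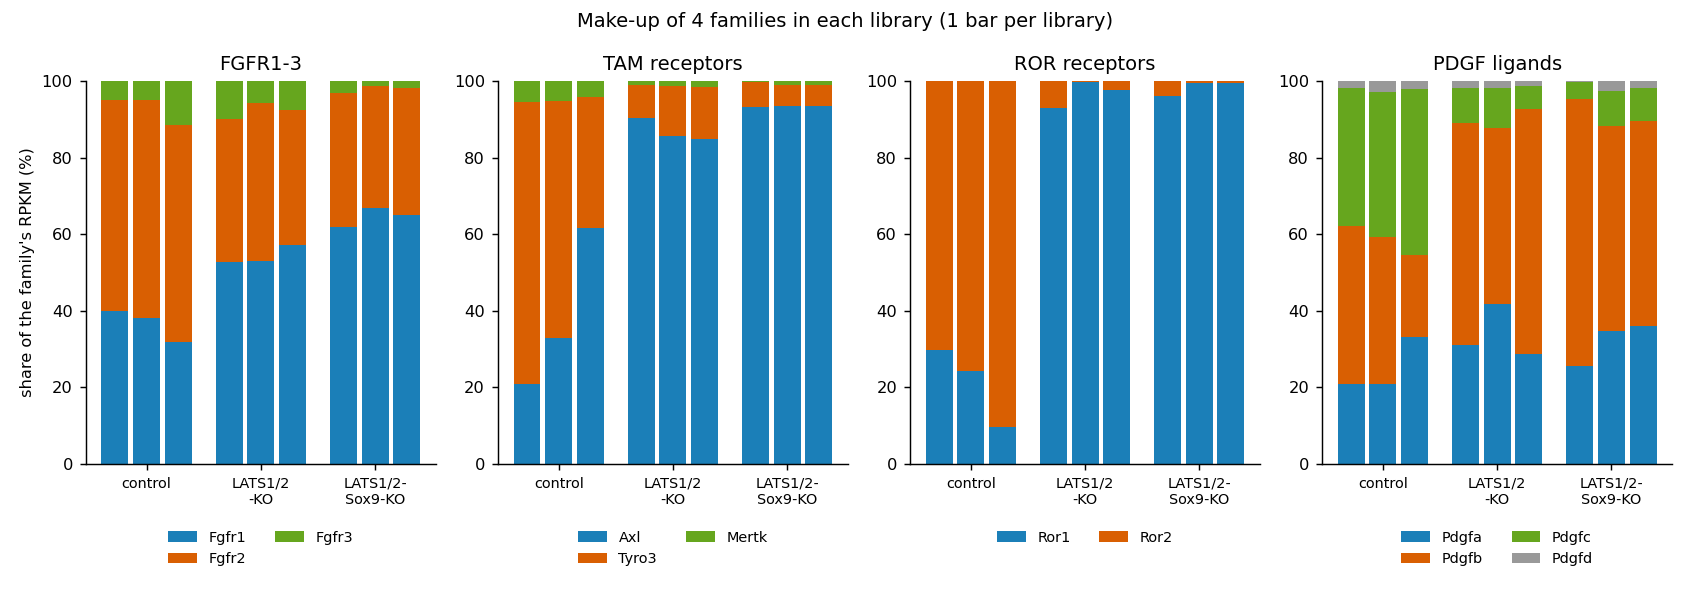
Share of each family's summed RPKM (vertical, percent) taken by each gene, with 1 stacked bar for each of the 9 libraries, for FGFR1-3, the TAM receptors, the ROR receptors and the PDGF ligands. In all 6 floxed libraries Fgfr1 stands above Fgfr2, Axl above Tyro3 and Ror1 above Ror2, the reverse of the controls except for control library 3, where Axl already leads with 61.5%.

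FGF ligands moved in both directions. Of 22 FGF ligand genes listed, 15 were tested, and 6 rose and 7 fell in LATS1/2-KO against control, beside 17.1% and 17.5% of all genes tested. In LATS1/2-Sox9-KO against control 5 rose and 7 fell, beside 17.8% and 19.6%. The median log2 fold change of the 15 was 0.52 and -1.44. Fgf11, Fgf12 and Fgf14, which belong to the intracellular FGF homologues that do not act through FGF receptors, fell most by the rule used for naming genes. Fgf11 went from 766 normalized counts in the controls (mean, n = 3) to 39.7 and 26.5 in the LATS1/2-KO and LATS1/2-Sox9-KO libraries. Its LATS1/2-KO mean leaned on library 1, at 73.2, with the others at 19.5 and 26.4. Secreted ligands that act on FGF receptors moved both ways. Fgf1, Fgf2 and Fgf17, named here after their values were seen, fell in both floxed groups, and Fgf1 went from 3546 normalized counts in the controls (mean, n = 3) to 380 and 145. The LATS1/2-KO mean of Fgf1 likewise leaned on library 1, at 697, with the others at 187 and 255. Fgf20 rose from 18.2 to 107 and 73.2. Fgf18 rose from 3.82 to 57.0 and 25.7, and its LATS1/2-KO mean rested on library 1, at 113, with the others at 22.0 and 35.6. Fgf16 had no count in any control and was at least 4.99-fold higher in the LATS1/2-KO libraries and at least 32.3-fold higher in the LATS1/2-Sox9-KO libraries, against a floor of 3 counts per library. The smaller bound leaned on LATS1/2-KO library 2, at 32.2 normalized counts, with the others at 8.02 and 12.8. Fgf10, the stromal ligand of FGFR2, picked out here for that role, was not tested, with no library above 5.08 normalized counts. Fgf7, the other such ligand, was tested but not called, at 5.80, 11.3 and 24.9 in the controls, 9.03, 46.6 and 20.1 in the LATS1/2-KO libraries and 53.8, 28.9 and 36.4 in the LATS1/2-Sox9-KO libraries, which lay above all controls (edgeR, adjusted p = 0.0917).

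Of the 8 partners of the FGF receptors listed, 5 were tested, and Fgfbp1 moved most. This secreted protein carries FGFs away from the matrix. It stood at 70.8, 65.8 and 118 normalized counts in the controls, at 4094, 2297 and 2601 in the LATS1/2-KO libraries, and at 11151, 9132 and 9952 in the LATS1/2-Sox9-KO libraries. No group overlapped another. The log2 fold changes were 5.14 ± 0.30 and 6.89 ± 0.32 against control (edgeR, adjusted p = 1.95e-06 and 4.24e-07) and 1.75 ± 0.25 between the floxed groups (adjusted p = 0.00614). Fgfbp3 rose by 1.14 and 1.76 on the log2 scale against control. Fgfrl1, an FGF receptor without a kinase domain, differed from control by 0.16 (adjusted p = 0.604, not called) in the LATS1/2-KO libraries and fell by 1.04 in the LATS1/2-Sox9-KO libraries, where the difference from the LATS1/2-KO libraries of -1.20 ± 0.25 was called as well (adjusted p = 0.0228). Frs3, an adaptor that docks on FGF receptors, fell by 1.54 in the LATS1/2-Sox9-KO libraries against control.

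A further list held genes that are commonly induced by, and feed back on, FGF and other receptor tyrosine kinase signalling. Of 13 tested, 1 rose and 6 fell in LATS1/2-KO against control, none rose and 9 fell in LATS1/2-Sox9-KO against control, and 1 fell between the floxed groups, beside 17.5%, 19.6% and 2.16% of all genes that fell in these comparisons. Their median log2 fold change was -0.86, -1.48 and -0.48. Spred2 and Spred3, inhibitors of the RAS-MAP kinase pathway, fell by 2.22 and 1.34 on the log2 scale in the LATS1/2-KO libraries. Etv1, an ETS transcription factor, fell by 3.18 there and fell by 5.195 in the LATS1/2-Sox9-KO libraries. Etv4, of the same subfamily, went the other way and rose by 1.12 in LATS1/2-KO against control. Etv5 separated the floxed groups: it stood at 519, 490 and 548 normalized counts in the LATS1/2-KO libraries and at 168, 109 and 181 in the LATS1/2-Sox9-KO libraries, a log2 fold change of -1.76 ± 0.28 (edgeR, adjusted p = 0.00974).

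**Figure D3:**
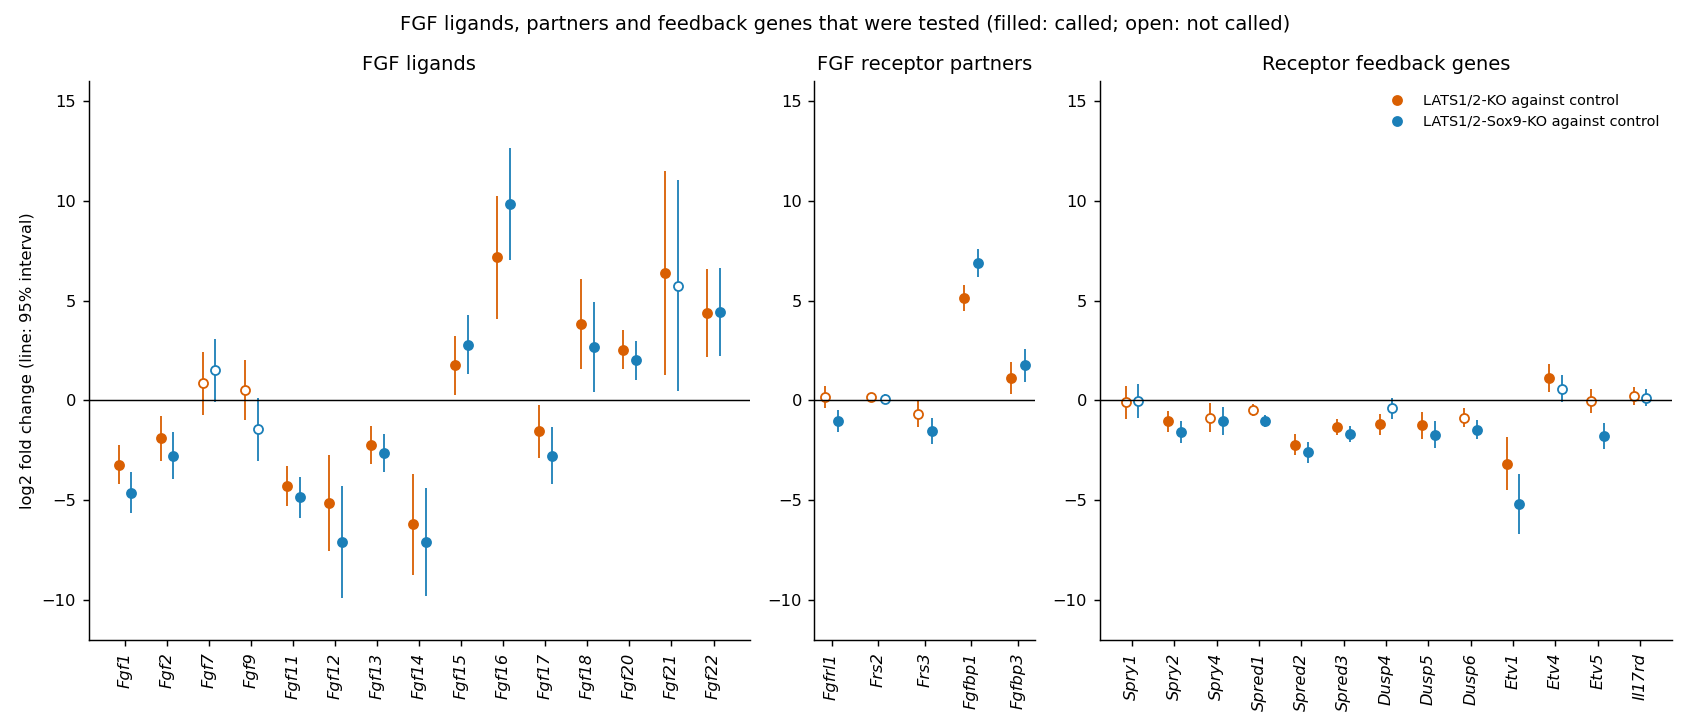
Log2 fold change against control (vertical) of the tested FGF ligands, FGF receptor partners and receptor feedback genes, with the 95% interval as a line, filled where called and open where not. Fgfbp1 has the largest rise among the partners, and 9 of the 13 feedback genes are called lower in the LATS1/2-Sox9-KO libraries. Fgf16 and Fgf21 had no count in the controls, so their fitted values depend on the prior count.

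Axl and its ligand Gas6 moved in opposite directions. Axl stood at 706, 1107 and 2607 normalized counts in the controls, at 8349, 3795 and 5220 in the LATS1/2-KO libraries, and at 13311, 8190 and 8009 in the LATS1/2-Sox9-KO libraries. All 6 floxed libraries lay above all controls, control library 3 was the highest of the controls, and the floxed groups overlapped. Axl rose against control by 1.97 ± 0.46 on the log2 scale (edgeR, adjusted p = 0.00479) and by 2.74 ± 0.48 (adjusted p = 0.000742). Without control library 3 the rise was 2.66 and 3.45, and without LATS1/2-KO library 1 it was 1.62 in LATS1/2-KO against control. The difference between the floxed groups was 0.77 ± 0.45, not called (adjusted p = 0.352), with a 95% interval from -0.24 to 1.77.

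Gas6, the vitamin K-dependent ligand of the TAM receptors, was the most abundant of the 10 genes in every group, at 319 ± 45.8 RPKM in the controls (SD, n = 3), 126 ± 47.6 in the LATS1/2-KO libraries and 55.9 ± 7.18 in the LATS1/2-Sox9-KO libraries. It stood at 45912, 48649 and 36654 normalized counts in the controls, at 10191, 23088 and 18371 in the LATS1/2-KO libraries, and at 8685, 7582 and 6719 in the LATS1/2-Sox9-KO libraries. No group overlapped another, and LATS1/2-KO library 1 lay nearest to the LATS1/2-Sox9-KO libraries. The log2 fold changes against control were -1.35 ± 0.26 (edgeR, adjusted p = 0.00146) and -2.51 ± 0.27 (adjusted p = 3.10e-05). Between the floxed groups the difference was -1.17 ± 0.26 (adjusted p = 0.0289), a call that was lost under 6 of the 19 alternatives, as without LATS1/2-KO library 2 (-0.87, adjusted p = 0.0779). Without LATS1/2-KO library 1 it was -1.43 (adjusted p = 0.00330), and the change in LATS1/2-KO against control was -1.07. With offsets for GC content the change in LATS1/2-KO against control was -0.90, under the 2-fold threshold, with an adjusted p of 0.0153.

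The other TAM receptors did not follow Axl. Tyro3 fell by 1.44 and 1.67 on the log2 scale and Mertk by 1.15 and 1.29 in the LATS1/2-KO and LATS1/2-Sox9-KO libraries against control, each called in edgeR's test. Axl therefore made up 38.4% ± 20.9 of the TAM receptor RPKM in the controls (SD, n = 3; 20.99%, 32.8% and 61.5% in the libraries), 86.9% ± 3.01 in the LATS1/2-KO libraries and 93.4% ± 0.238 in the LATS1/2-Sox9-KO libraries. Pros1, protein S, the other TAM ligand listed, stood at 996, 1318 and 589 normalized counts in the 3 groups (means, n = 3), and only its difference between the floxed groups was called (-1.16 ± 0.22, adjusted p = 0.0169).

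Macrophages also express Axl, and macrophage genes moved in the same direction. Of 8 listed, 4 rose in LATS1/2-KO against control and 6 in LATS1/2-Sox9-KO against control. Their summed normalized count was 867 ± 217 in the controls (SD, n = 3), 3620 ± 1461 in the LATS1/2-KO libraries and 4427 ± 962 in the LATS1/2-Sox9-KO libraries. In both floxed groups most of that sum was Csf1r, itself a receptor tyrosine kinase, while Cd68 was the largest part in the controls. Csf1r stood between 128 and 208 in the controls and between 1753 and 3875 in the floxed libraries. The complement genes C1qa, C1qb and C1qc rose in both floxed groups, from means of 17.1, 11.2 and 10.6 in the controls to 141, 185 and 138 in the LATS1/2-KO libraries and 136, 185 and 103 in the LATS1/2-Sox9-KO libraries. Among the LATS1/2-KO libraries they were highest in library 1, at 260, 351 and 274, as was Axl. They stood at 119, 123 and 101 in library 2, where Axl was lowest of the group, and at 44.7, 82.1 and 38.3 in library 3. Among the LATS1/2-Sox9-KO libraries the order was otherwise. There the complement genes were highest in library 3, at 215, 326 and 157, where Axl was lowest (8009), and Axl was highest in library 1 (13311). Adgre1 and Mrc1 rose in LATS1/2-Sox9-KO against control, Adgre1 without passing 88.4 in any library. Cd68 was not called and stood between 398 and 406 in the controls and between 229 and 393 in the others. The sort kept live EYFP+ cells, a gate meant to leave out cells in which the keratin 8-driven Cre had not acted. The part of macrophages in the rise of Axl was not tested.

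Promoter sequences were compared for the members that have an entry in the RefSeq table used (8 of 10, GRCm38.p6), over the 250 bases before the annotated start. Axl and Gas6 are printed because receptor and ligand moved in opposite directions, and Ror1 as another member that rose in both floxed groups. Capitals mark matches to GGAATG, the core bound by TEAD factors, or to the AP-1 motif TGANTCA, both searched on either strand. The Axl window is chr7:25788734-25788983 on the minus strand, that of Gas6 chr8:13494536-13494785 on the minus strand, and that of Ror1 chr4:100095541-100095790 on the plus strand.
Axl: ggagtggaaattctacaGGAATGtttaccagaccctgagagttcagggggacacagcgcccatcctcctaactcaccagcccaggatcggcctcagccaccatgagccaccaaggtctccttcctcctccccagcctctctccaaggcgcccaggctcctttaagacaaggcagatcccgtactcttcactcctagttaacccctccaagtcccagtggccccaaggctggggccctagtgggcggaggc
Gas6: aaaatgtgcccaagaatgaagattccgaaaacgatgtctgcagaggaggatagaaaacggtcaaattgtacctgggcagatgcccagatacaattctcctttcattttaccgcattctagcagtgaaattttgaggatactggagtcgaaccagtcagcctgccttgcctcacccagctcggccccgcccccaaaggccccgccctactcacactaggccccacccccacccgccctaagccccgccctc
Ror1: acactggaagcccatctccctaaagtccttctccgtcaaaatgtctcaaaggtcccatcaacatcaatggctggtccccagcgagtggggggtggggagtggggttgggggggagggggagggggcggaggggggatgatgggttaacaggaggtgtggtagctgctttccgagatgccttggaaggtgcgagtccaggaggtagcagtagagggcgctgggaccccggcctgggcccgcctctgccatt
Among the members only Axl held GGAATG, starting 233 bases before the start, and 12.6% of all 32536 promoter windows hold it. Only Met held TGANTCA, starting 54 bases before its RefSeq start, and 6.73% of all windows hold it. None of the members held AACAAT, a core bound by SOX factors, which 9.35% of all windows hold. The GC box GGGCGG, on either strand, was found in the windows of Fgfr3, Axl, Gas6, Met, Pdgfa and Ror1, and 33% of all windows hold it. A match is a description of the letters only, and the absence of a match says nothing of a factor's binding elsewhere.

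Met, the receptor for HGF, was higher by just under the 2-fold threshold in both floxed groups. It stood at 10598, 10856 and 5822 normalized counts in the controls, at 15630, 19024 and 16446 in the LATS1/2-KO libraries and at 15937, 17806 and 16623 in the LATS1/2-Sox9-KO libraries. All floxed libraries lay above all controls, control library 3 was the lowest, and the floxed groups overlapped. The log2 fold changes were 0.91 ± 0.21 (edgeR, adjusted p = 0.00417) and 0.88 ± 0.21 (adjusted p = 0.00442), so that the adjusted p passed but the size did not. Without control library 1 or 2, which leaves control library 3 more weight, Met was called in both comparisons (1.03 and 1.05 in LATS1/2-KO against control), and without control library 3 it was 0.65 in each. With GC content offsets it was 0.54 in LATS1/2-KO against control (edgeR, adjusted p = 0.0433). The lowest value over the 19 alternatives in LATS1/2-Sox9-KO against control was 0.58. Between the floxed groups the log2 fold change was -0.02, with a 95% interval from -0.48 to 0.44.

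Of the 8 genes listed around HGF, 4 fell and none rose in LATS1/2-KO against control, beside 17.5% of all genes tested that fell. In LATS1/2-Sox9-KO against control 3 fell, beside 19.6%. Hpn (hepsin) and St14 (matriptase), proteases that can activate pro-HGF at the cell surface, were among those that fell. Hpn fell by 2.24 and 2.84 on the log2 scale, and St14 fell by 1.28 in LATS1/2-KO against control. St14 differed by -0.88 in LATS1/2-Sox9-KO against control, which passed the adjusted p (0.00394) but not the size. Hgf, Spint1 and Spint2, named here after their values were seen, were not called. Hgf was scarce, with means of 50.6, 23.3 and 26.4 normalized counts in the 3 groups. Spint1 averaged 16759, 10135 and 11091 and Spint2 37488, 20735 and 20646, with all floxed libraries under all controls. Mst1r, the receptor closest to MET, fell by 1.61 and 1.96 and gave at most 2.62% of the summed RPKM of the pair in any library.

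Ror1 rose in both floxed groups. It stood at 310, 422 and 153 normalized counts in the controls, at 1175, 3566 and 3136 in the LATS1/2-KO libraries and at 1693, 2759 and 2589 in the LATS1/2-Sox9-KO libraries. Floxed libraries all lay above the controls and overlapped each other, with LATS1/2-KO library 1 the lowest of them. Ror1 rose by 3.15 ± 0.47 on the log2 scale (edgeR, adjusted p = 0.000297) and by 2.99 ± 0.46 (adjusted p = 0.000353), and the difference between the floxed groups was -0.16 with a 95% interval from -1.11 to 0.78. Its relative Ror2 went the opposite way, from 851 normalized counts in the controls (mean, n = 3) to 43.2 and 23.7, so that Ror1 made up 21.3% ± 10.5 of the RPKM of the pair in the controls, 96.8% ± 3.50 in the LATS1/2-KO libraries and 98.4% ± 1.98 in the LATS1/2-Sox9-KO libraries.

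Among the 8 genes listed around ROR and Wnt5 signalling, 3 rose and 1 fell in LATS1/2-KO against control, beside 17.1% and 17.5% of all genes tested. In LATS1/2-Sox9-KO against control 2 rose and 2 fell, beside 17.8% and 19.6%. Wnt11, a non-canonical Wnt ligand, rose by 3.87 and 3.92 on the log2 scale, and Vangl1, a planar cell polarity protein, by 1.71 and 1.55. Ryk, a Wnt-binding receptor, rose by 1.39 in LATS1/2-KO against control and differed by 0.86 in LATS1/2-Sox9-KO against control. Ptk7, a co-receptor in planar cell polarity, fell by 1.06 in LATS1/2-Sox9-KO against control. Neither Wnt ligand after which the list is named was called: Wnt5a, picked out after its values were seen, ranged from 3066 to 10700 normalized counts in the controls and from 651 to 6230 in the LATS1/2-KO libraries, and stood at 2103, 1405 and 2070 in the LATS1/2-Sox9-KO libraries, all under the controls (edgeR, adjusted p = 0.0616).

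Pdgfa, which encodes the A chain of PDGF, rose in both floxed groups. It stood at 674, 646 and 1101 normalized counts in the controls, at 5140, 5905 and 5912 in the LATS1/2-KO libraries and at 5016, 4209 and 4170 in the LATS1/2-Sox9-KO libraries. No group overlapped another. The log2 fold changes against control were 2.81 ± 0.21 (edgeR, adjusted p = 5.28e-06) and 2.47 ± 0.20 (adjusted p = 6.70e-06). The difference between the floxed groups was -0.34 ± 0.19 with a 95% interval from -0.77 to 0.09 and was not called (adjusted p = 0.332). Pdgfa shares 813 exonic bases with an antisense gene, 6330403L08Rik. If the counting did not use strand, reads of the pair cannot be told apart there, and the antisense gene held 2980 counts over the 9 libraries beside 34818 for Pdgfa.

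Pdgfb, the B chain, rose with it, from 1435 normalized counts in the controls (mean, n = 3) to 13006 and 11725, and Pdgfd rose from 72.1 to 282 and 197. The LATS1/2-Sox9-KO libraries overlapped the controls for Pdgfd, with library 1 at 57.6 under all 3 of them. The 4 PDGF ligand genes together went from 19.1 ± 0.703 RPKM in the controls (SD, n = 3) to 102 ± 19.7 in the LATS1/2-KO libraries and 86.1 ± 26.6 in the LATS1/2-Sox9-KO libraries. Pdgfa gave 25.0%, 33.9% and 32.1% of this sum and Pdgfb 33.7%, 56.0% and 58.9% in the 3 groups.

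The PDGF receptors were scarce throughout. Pdgfra, the receptor for the A chain, stood at 341, 418 and 299 normalized counts in the controls, at 368, 210 and 192 in the LATS1/2-KO libraries and at 35.3, 65.8 and 162 in the LATS1/2-Sox9-KO libraries. The LATS1/2-KO libraries overlapped the controls, and the LATS1/2-Sox9-KO libraries lay under both groups. The log2 fold change was -0.46 ± 0.48 in LATS1/2-KO against control, not called (edgeR, adjusted p = 0.441), and -2.0 ± 0.50 in LATS1/2-Sox9-KO against control (adjusted p = 0.00606). When 1 library was left out the latter ranged from -1.60, without LATS1/2-Sox9-KO library 1, to -2.79, without LATS1/2-Sox9-KO library 3, and was called each time. Between the floxed groups it was -1.54 ± 0.49, not called (adjusted p = 0.0965). DESeq2 called that difference, with an adjusted p of 0.0114, and without LATS1/2-Sox9-KO library 3 it was -2.32 and called by edgeR (adjusted p = 0.0240).

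Pdgfrb, the receptor for the B chain, never passed 75.2 normalized counts: it stood between 18.7 and 29.5 in the controls, between 25.4 and 75.2 in the LATS1/2-KO libraries and between 15.8 and 45.5 in the LATS1/2-Sox9-KO libraries. No comparison called it, and the 95% interval of its log2 fold change ran from -0.28 to 2.17 in LATS1/2-KO against control. Per length the receptors of the pair summed to 0.734 ± 0.131, 0.632 ± 0.265 and 0.279 ± 0.169 RPKM in the 3 groups (SD, n = 3). Pdgfrl, a secreted protein that resembles the receptors, fell by 2.81 in LATS1/2-Sox9-KO against control. It stood at 296, 273 and 403 normalized counts in the controls and at 16.7, 14.9 and 107 in the LATS1/2-Sox9-KO libraries, so the size of the fall depended on library 3.

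Fibroblasts and pericytes carry these receptors, and their listed genes moved in both directions. The summed normalized count of 8 fibroblast genes was 4547 ± 3408 in the controls (SD, n = 3), 1310 ± 682 in the LATS1/2-KO libraries and 398 ± 249 in the LATS1/2-Sox9-KO libraries. Nearly all of it in the controls was Dcn, at 1626, 3291 and 8162, which fell in both floxed groups, while 2 others of the 8 rose in LATS1/2-KO against control and 1 in LATS1/2-Sox9-KO against control. The median log2 fold change of the 8 was 0.12 and 0.33 in these comparisons, so that the fall of the sum was that of Dcn. Of the pericyte genes, 6 of 8 were tested, and 3 fell in both floxed groups, while Cspg4 rose in LATS1/2-KO against control. Their sum was mostly Notch3, which epithelial cells express too, in the controls and in the LATS1/2-Sox9-KO libraries, whereas in the LATS1/2-KO libraries Mcam averaged 4109 normalized counts and Notch3 3006. The EYFP+ sort was meant to leave out fibroblasts and pericytes as well, and the part of these cells in the values of Pdgfra was not tested.

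**Figure D4:**
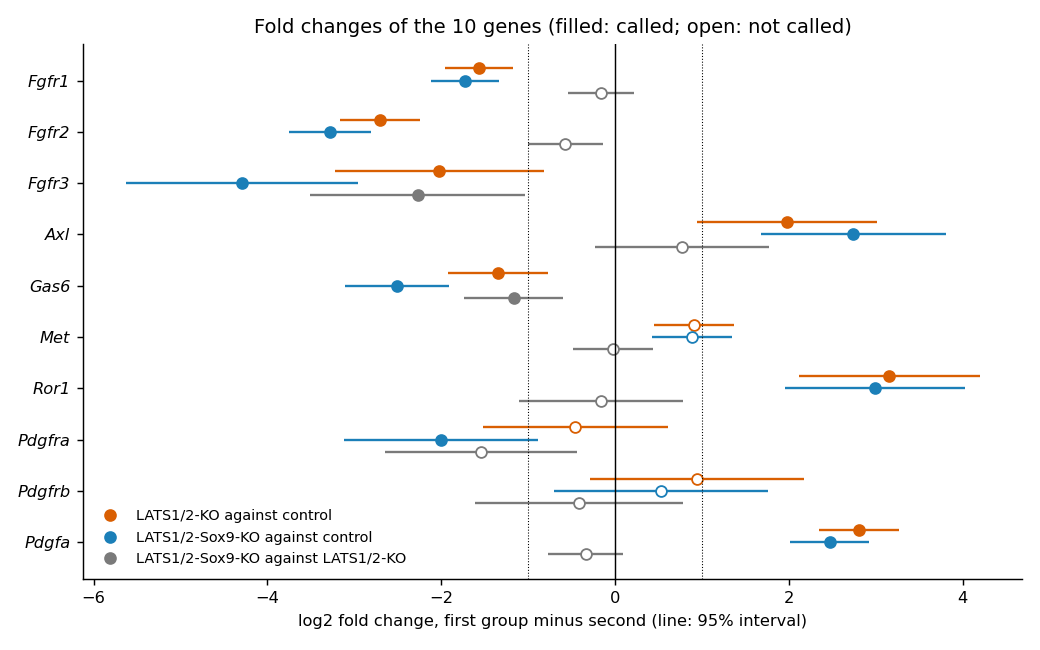
Log2 fold change (horizontal, first group minus second) of the 10 genes in the 3 comparisons, with the 95% interval as a line, filled where called and open where not, and dotted lines at the 2-fold threshold. Most orange and blue points lie beyond the dotted lines, while of the grey points, for LATS1/2-Sox9-KO against LATS1/2-KO, only Fgfr3 and Gas6 are filled.

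Per length, the order of the 10 genes differed between the groups. In the controls it ran from Gas6 through Fgfr2 (63.3 RPKM), Fgfr1 (41.2), Met (22.0), Fgfr3 (8.21), Axl (5.44), Pdgfa (4.81), Ror1 (0.951) and Pdgfra (0.654) to Pdgfrb (0.0807). The libraries of Fgfr3 and Axl, of Axl and Pdgfa, and of Ror1 and Pdgfra overlapped in level. In the LATS1/2-KO libraries Gas6 was followed by Met (41.2), Pdgfa (33.7), Axl (21.4), Fgfr1 (13.96), Fgfr2 (9.69), Ror1 (8.47), Fgfr3 (2.02), Pdgfra (0.476) and Pdgfrb (0.156), where Pdgfa overlapped Axl, Axl overlapped Fgfr1, and Fgfr2 overlapped Ror1. In the LATS1/2-Sox9-KO libraries Gas6 was followed by Met (40.6), Axl (36.3), Pdgfa (26.6), Fgfr1 (12.5), Ror1 (7.57), Fgfr2 (6.52), Fgfr3 (0.417), Pdgfra (0.163) and Pdgfrb (0.117). Met overlapped Axl there, Axl overlapped Pdgfa, Ror1 overlapped Fgfr2, and Fgfr3, Pdgfra and Pdgfrb overlapped in turn. Between the controls and the LATS1/2-Sox9-KO libraries Fgfr2 had thus gone from the leading receptor of the set to the fifth of 8, and Met from the third to the first.

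The summed RPKM of the 8 receptors was 142 ± 3.80 in the controls (SD, n = 3), 97.3 ± 3.54 in the LATS1/2-KO libraries and 104 ± 13.2 in the LATS1/2-Sox9-KO libraries. The FGF receptors gave most of it in the controls, where Fgfr2 alone held 44.6% ± 2.10, against 9.95% ± 0.277 and 6.16% ± 1.24 in the floxed groups. Met and Axl gave most of it in the floxed groups: Met 42.5% ± 5.76 and 39.5% ± 6.17, and Axl 21.8% ± 7.94 and 34.4% ± 5.99.

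The rest of the receptor tyrosine kinase family moved in both directions as well. Of 50 other receptors listed, 39 were tested, 8 rose and 14 fell in LATS1/2-KO against control, 7 rose and 18 fell in LATS1/2-Sox9-KO against control, and none rose and 2 fell between the floxed groups (Tek and Ephb4). Over all genes tested 17.1%, 17.8% and 1.55% rose and 17.5%, 19.6% and 2.16% fell in these comparisons. The median log2 fold change of the 39 was -0.64, -0.90 and -0.06. Flt4, the receptor for VEGF-C, rose by 5.56 and 7.13 on the log2 scale, and Csf1r by 3.87 and 4.35. Epha1, an ephrin receptor, rose in both floxed groups, by 2.64 in LATS1/2-KO against control. Its means were 2041, 12699 and 17593 normalized counts in the 3 groups (n = 3). Alk fell in both floxed groups, from 545, 395 and 162 normalized counts in the controls to 8.02, 0 and 0 in the LATS1/2-KO libraries and 3.71, 0 and 0.91 in the LATS1/2-Sox9-KO libraries, too few counts for a fold change. Erbb4, a neuregulin receptor, fell in both floxed groups, by 5.54 in LATS1/2-Sox9-KO against control. It stood at 958, 864 and 523 normalized counts in the controls and at 45.1, 62.7 and 60.2 in the LATS1/2-KO libraries. In the LATS1/2-Sox9-KO libraries it stood at 32.5, 14.9 and 2.73, so the size of the fall there is loosely set. Insrr, the insulin receptor-related receptor, had no count in the LATS1/2-KO libraries and was at least 21.02-fold lower there, against the floor of 3 counts per library. Among the 8 receptors of the set, 2 rose and 3 fell in LATS1/2-KO against control, beside 17.1% of all genes that rose and 17.5% that fell.

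**Figure D5:**
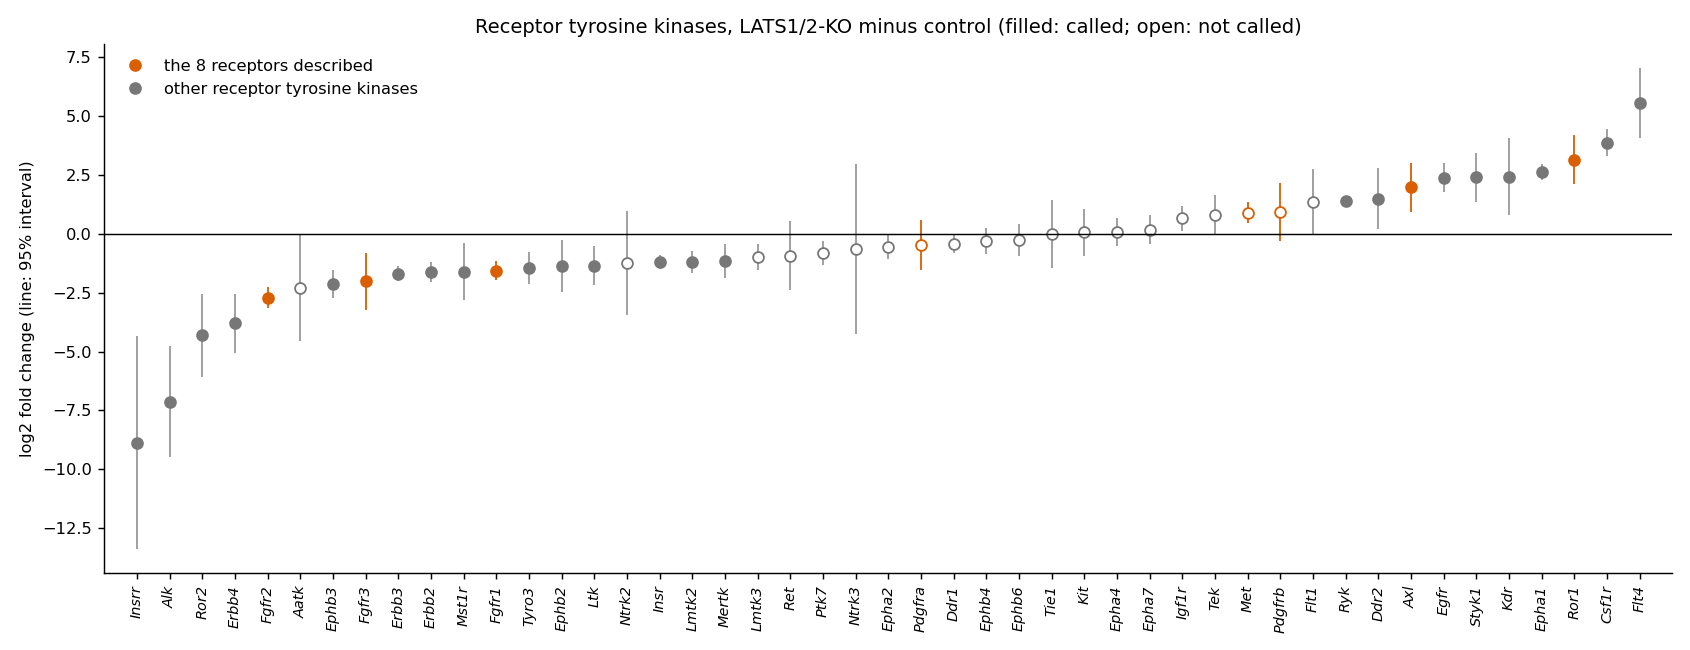
Log2 fold change of LATS1/2-KO against control (vertical) of the receptor tyrosine kinases that were tested, in order of the value, with the 95% interval as a line, and orange marks the 8 receptors described and grey the 39 others, filled where called. The described receptors run from Fgfr2 (-2.71) to Ror1 (3.15), with other receptors beyond them at both ends, and Insrr had no count in the LATS1/2-KO libraries, so its fitted value depends on the prior count.

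Downstream, 22 adaptors and kinases that many of these receptors share were examined as well. In LATS1/2-KO against control 3 rose and 1 fell, beside 17.1% and 17.5% of all genes tested. In LATS1/2-Sox9-KO against control 4 rose and 4 fell, beside 17.8% and 19.6%. Between the floxed groups none was called in edgeR's test, with 3 of the 22 passing the adjusted p alone, all downwards. Pik3cb, a PI3-kinase catalytic subunit, rose by 2.23 and 2.24 on the log2 scale, and Nras, which encodes a RAS protein, rose by 1.08 and 1.18. Gab1, a docking protein of MET and other receptors, fell by 1.12 and 1.35. Pik3r1, a PI3-kinase regulatory subunit, and Braf fell by 1.11 and 1.10 in LATS1/2-Sox9-KO against control.

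The genes whose pattern over the 9 libraries was most like that of each member were found by the root mean square difference of centred log2 CPM, among tested genes averaging 100 normalized counts or more. For Fgfr1 they were Wdtc1 (0.0932), Trrap (0.103) and Hivep1 (0.113), and for Fgfr2 Fam69a (0.191), Cd164 (0.205) and Tbx3 (0.220), a mammary transcription factor. For Fgfr3 they were Samd5 (0.458), Man1a (0.548) and Bmp3 (0.554). Axl was nearest to Itga3 (0.340), an integrin chain, then Tmem140 (0.342) and Slc4a11 (0.380), and Gas6 to P4htm (0.193), Csad (0.206) and Hspa2 (0.211). Met was near to Rpl27 (0.0870) and Synpo (0.140), Ror1 to Il1rap (0.253), Arhgap11a (0.315) and Depdc1b (0.318), and Pdgfa to Sync (0.187), Tpm1 (0.199), a tropomyosin, and Tuba1a (0.216). Pdgfra was nearest to Adgrl3 (0.397), Itga8 (0.406) and Trib2 (0.430), and Pdgfrb to Atp2b4 (0.282), Plat (0.299) and Nme4 (0.310). No member was among the 3 genes kept for another member. With 11812 genes compared, this says little of patterns shared between members, and Pdgfrb was under the count minimum.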

How the data were processed

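RNA was measured in 9 libraries of sorted EYFP+ mammary cells. Per the study's methods and the submitters' processing notes, the authors aligned read pairs to mm10 with STAR 2.6.0c, checked them with FastQC 0.11.7 and counted uniquely aligned proper pairs per gene of Ensembl build 100 with featureCounts (Subread 1.6.2), and deposited unnormalized counts. Mitochondrial genes had been left out. The methods speak of counting on the same strand, whereas the library kit named does not mark strand. Which setting was used was not settled here, so genes that overlap on opposite strands are given as uncertain.

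Counts were fitted in R 4.3.3 with edgeR 4.0.16 (filterByExpr, TMM factors, quasi-likelihood F test, all 9 libraries, 3 group means), with Benjamini-Hochberg adjustment over 19357 genes. Intervals are at 95%. Symbols, exonic lengths and overlaps came from GENCODE M21 on GRCm38, which matched all 217 listed symbols but is not the annotation the counts were made with. Exact permutation of 3 against 3 libraries cannot go below p = 0.1, so no single-gene permutation test was run. No pair of libraries within a group was a duplicate, with a chi-square per gene between 17.9 and 142.

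The members and gene lists were chosen with earlier results of these data known. Besides members, targeted genes and most abundant or absent cell type markers, the text names from each companion list and comparison up to 3 risen and 3 fallen genes with the largest change among those called, without overlap between the groups and with a mean of 50 normalized counts or more in the higher one, and the 3 genes most like each member in pattern. Some genes that this rule would name are not reported here. Alternatives were DESeq2 1.42.0, other scaling, filters and thresholds, GC content offsets, a replicate block, the compared groups alone and leaving out each library.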

Additional observations from a re-analysis of the deposited data

How the results depend on the processing

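Under 19 alternatives, 538 of 570 member results kept their direction and their side of the threshold. Requiring a fold change above 2 within the test itself (glmTreat) called 4005, 4708 and 32 genes in LATS1/2-KO against control, LATS1/2-Sox9-KO against control and LATS1/2-Sox9-KO against LATS1/2-KO, and 0 members in the last. DESeq2 called 1233 genes there. Leaving out 1 library gave 201 to 1079 genes and 0 to 2 members in that comparison. The gene count was 201, 446 and 475 without LATS1/2-Sox9-KO library 2, 1 and 3, 278 without LATS1/2-KO library 3 and 1079 without LATS1/2-KO library 1. The members were 0 without LATS1/2-KO library 3 or LATS1/2-Sox9-KO library 2, 2 without control library 3 and 1 without any other library. Of the calls against control, Fgfr3 and Gas6 in LATS1/2-KO were lost under glmTreat and Gas6 with GC content offsets, while Met was called in both without control library 1 or 2. Between the floxed groups Pdgfra was called with DESeq2, without the filter and without LATS1/2-Sox9-KO library 3. The causes were not tested.

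Only small differences between the floxed groups reversed. Met was 0.01 (0.0098) without the filter and 0.04 (0.0352) with GC content offsets, and ranged from -0.078 to 0.0953 when a library was left out. Pdgfrb ranged from -0.6766 to 0.1325 and Ror1 from -0.5126 to 0.1506. None of these was called.

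Whether the replicate numbers in the labels pair the libraries was not settled, since weak correlations over so few libraries cannot decide it. Deviations from the group mean correlated at -0.065, -0.01 and -0.066 between same-numbered libraries of LATS1/2-KO and control. For LATS1/2-Sox9-KO and control the values were 0.037, 0.019 and 0.02 (each best with its own number). Between the floxed groups they were 0.105, 0.17 and -0.032, with libraries 1 and 2 best with their own number. With the number as a block, 6521, 7087 and 601 genes and 7, 8 and 2 members were called in the 3 comparisons, and no member's call changed. Pdgfrb had the fewest counts of the members, 15 to 75 per library.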
